A study of Mus musculus with 18 samples.

Results

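Small RNAs in the liver of mice fed 0.5% cholesterol (high cholesterol diet, HCD) were compared in PANDORA-seq libraries with those of mice fed 0.02% cholesterol (low cholesterol diet, LCD) in the same low-fat base diet. All PANDORA-seq libraries of the series were taken, 4 from HCD-fed mice (numbered 15 to 18) and 5 from LCD-fed mice (numbered 1 to 5), which are 9 of its 18 libraries. The other 9 are traditional-seq libraries of the same mice. All animals were C57BL/6 males, 8 weeks old when the diets began, and neither group carried a transgene or a deletion. Feeding lasted 4 weeks by the design text of the series, 9 weeks by the growth protocol of the samples and 8 weeks by their time label, so its length is uncertain. Each library came from 1 mouse, and the labels name no batch. The table holds 1234 RNAs in RPM, reads scaled to a common library total. They are 1150 miRNAs by precursor, 51 tRNA families of the cytosol by anticodon, 22 tRNAs of mitochondria, 8 rRNAs, 2 Y RNAs and 1 entry for all piRNAs. All fragments of an RNA are summed in its value, which is not corrected for the length of the RNA, and reads that fit several entries were divided among them, so that near-identical entries are uncertain. The libraries held 2804622 to 10477638 reads on the HCD and 2511895 to 10217485 reads on the LCD, as inferred from the RPM value of 1 read. Reads on none of the listed RNAs made up 13.6% to 18.9% of the HCD libraries and 20.3% to 22.3% of the LCD libraries. This share separated the diets, and its part in the results was not tested.

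Small RNAs of the liver come from several sources. miRNAs are cut from hairpin precursors and guide the silencing of messenger RNAs through their seed, bases 2 to 8 of the mature strand. tsRNAs and rsRNAs are fragments of mature tRNAs and ribosomal RNAs, and many of them are cut in the anticodon loop of the tRNA. Such fragments often carry ends that adapters cannot join and methyl groups that stop reverse transcription. In PANDORA-seq the kinase T4PNK and then the demethylase AlkB act on the RNA beforehand, so that more of them enter the library. The liver takes up, stores and excretes cholesterol, and a diet rich in cholesterol lowers its own synthesis of it.

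On the HCD the libraries held more miRNA and less mitochondrial tsRNA. miRNAs took 7.56%, 9.93%, 15.8% and 7.56% of the reads on listed RNAs in HCD-fed mice 15 to 18, against 4.99%, 2.11%, 5.58%, 2.73% and 2.04% in LCD-fed mice 1 to 5. Every HCD library lay above every LCD library. Mitochondrial tsRNAs took 0.456% ± 0.153 on the HCD (SD, n = 4) and 1.16% ± 0.458 on the LCD (SD, n = 5), again without overlap. Both differences passed a two-sided exact permutation test over all ways to divide the 9 libraries, with p = 0.00794 for miRNAs and p = 0.0159 for mitochondrial tsRNAs (adjusted p = 0.0476 for each over the 6 classes). Cytosolic tsRNAs took 14.6% ± 3.17 (SD, n = 4) and 25.5% ± 7.35 (SD, n = 5), and the ranges overlapped (exact permutation test, adjusted p = 0.0714). Y RNA fragments took 0.00916% ± 0.00553 on the HCD (SD, n = 4) and 0.0176% ± 0.00438 on the LCD (SD, n = 5), with the same adjusted p from the exact test. rsRNAs, the largest class with 70.0% ± 2.12 (SD, n = 4) and 64.8% ± 7.25 (SD, n = 5), and piRNAs, with 4.79% ± 0.498 (SD, n = 4) and 5.08% ± 0.471 (SD, n = 5), did not pass (exact permutation tests, adjusted p = 0.267 and 0.349). Without 1 library, the adjusted p of the miRNA share ranged from 0.0429 to 0.107 and that of the mitochondrial share from 0.0429 to 0.161, and both passed only without LCD-fed mouse 2. With 8 libraries the exact test cannot reach as small a p as with 9. As a percent of all reads the mitochondrial share did not pass (exact permutation test, adjusted p = 0.0667). In such bulk libraries, fewer cells of a type and less RNA per cell cannot be told apart.

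**Figure D1:**
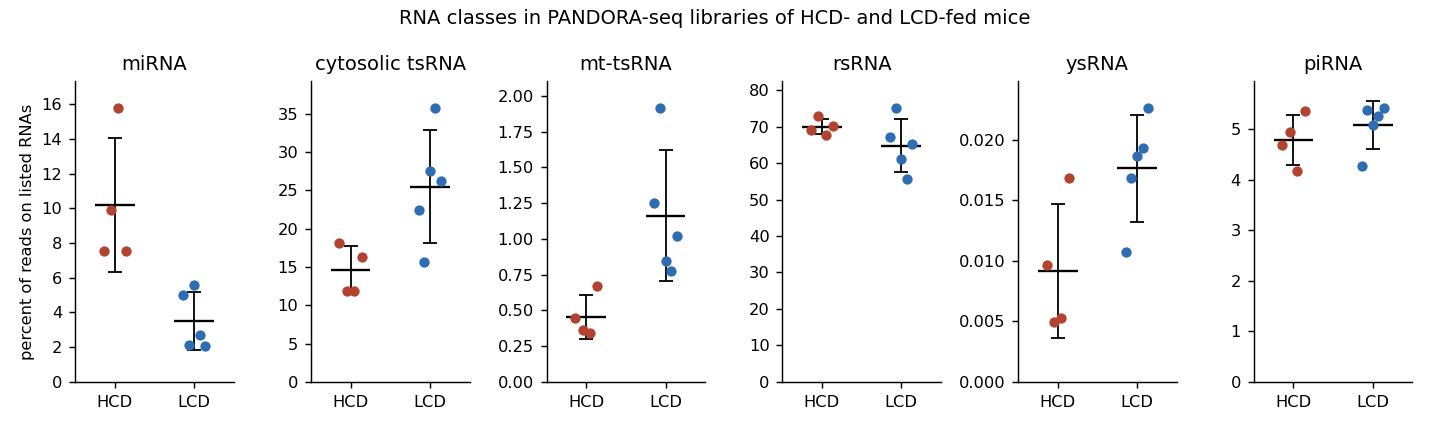
Share of each RNA class in percent of the reads on listed RNAs (vertical axes, all from 0) for the 4 HCD and the 5 LCD libraries, with a point per mouse in order of its number, the mean as a line and the SD as a bar. The miRNA share lies between 7.56% and 15.8% on the HCD and between 2.04% and 5.58% on the LCD.

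The miRNA reads were dominated by a pair of hepatocyte miRNAs. miR-122 and miR-148a alone made up 46.03% ± 7.31 and 39.4% ± 10.3 of the miRNA reads on the HCD (SD, n = 4 each) and 44.8% ± 18.4 and 29.9% ± 15.4 on the LCD (SD, n = 5 each). Without these 2, miRNAs still summed to 12754, 9285, 12023 and 11145 RPM in HCD-fed mice 15 to 18, against 8521, 4821, 6937, 6114 and 5146 RPM in LCD-fed mice 1 to 5, and the diets did not overlap. Cytosolic tsRNAs summed to 122397 ± 24492 RPM on the HCD (SD, n = 4) and 201033 ± 57557 RPM on the LCD (SD, n = 5), with overlap. Without fragments of tRNA-Glu-CTC they summed to 69707 ± 15811 RPM on the HCD (SD, n = 4) and 68926 ± 8815 RPM on the LCD (SD, n = 5), and without those of tRNA-His-GTG as well to 43752 ± 19917 RPM and 58870 ± 12035 RPM. The diets overlapped in each of these sums. There were 2.40, 1.20, 0.756 and 2.16 cytosolic tsRNA reads per miRNA read in HCD-fed mice 15 to 18, against 4.49, 7.39, 4.93, 13.1 and 12.8 in LCD-fed mice 1 to 5.

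Each RNA was then fitted on its own with limma, on log2(RPM + 1) after TMM scaling, which sets the libraries to a common level of the bulk of their RNAs. A level of 1 RPM in 4 or more of the 9 libraries was required, which 244 RNAs met, and an adjusted p under 0.05 was called. On the HCD 19 RNAs were higher, 7.79% of those tested, and 38 were lower, 15.6% of those tested. The classes took unequal parts in this. Of the 160 miRNAs tested 15 were higher and 9 lower, of the 51 cytosolic tsRNA families 3 were higher and 17 lower, and of the 22 mitochondrial tsRNA families 0 were higher and 10 lower. Of the 8 ribosomal RNAs 1 was higher and 1 lower, 1 of the 2 Y RNAs was lower, and the piRNA entry was not called. Some calls rest on few reads. Of the 38 lower RNAs 10 averaged under 10 RPM and 12 had under 3 reads in at least 1 library. Of the 19 higher RNAs 3 averaged under 10 RPM and 3 had under 3 reads in at least 1 library. The median log2 fold change was 0.11 over the miRNAs, −0.29 over the cytosolic and −1.35 over the mitochondrial tsRNA families, and −0.12 over all RNAs tested.

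**Figure D2:**
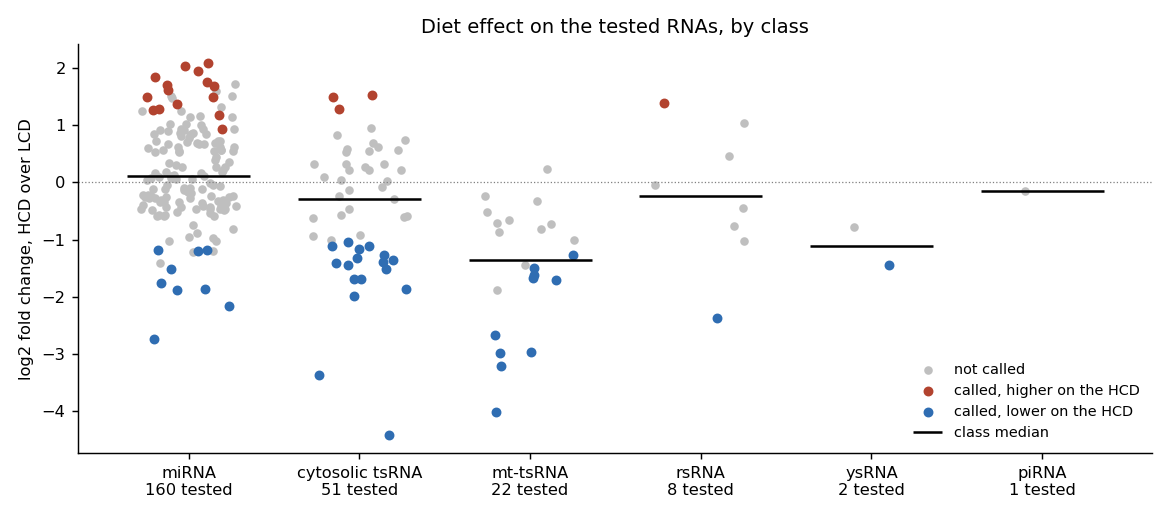
Log2 fold change of HCD over LCD in PANDORA-seq (vertical axis, limma after TMM scaling) for the 244 RNAs tested, by class, with called RNAs in colour and the median of each class as a line. All 10 calls among mitochondrial tsRNAs lie below 0, while 15 of the 24 calls among miRNAs lie above it.

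The scaling sets where no change lies, and the calls of both directions depended on it. The median log2 fold change of all RNAs tested was 0.03 with RPM as deposited, −0.14 per ribosomal RNA read and −1.27 per miRNA read, against −0.12 after TMM. The calls were 29 higher and 28 lower with RPM as deposited, 15 and 29 per ribosomal RNA read, 23 and 34 with unweighted TMM, 0 and 113 per miRNA read, and 40 and 23 with all 18 libraries in 1 fit. Of the 19 higher RNAs 19 were still called with RPM as deposited, with unweighted TMM and with all 18 libraries, and 13 per ribosomal RNA read. Of the 38 lower RNAs 28 were still called with RPM as deposited, 34 with unweighted TMM, 23 with all 18 libraries and 29 per ribosomal RNA read. Scaling per miRNA read shifts all RNAs downward together, so that lower RNAs could not turn or lose the call by it and higher ones could. There 38 of the 38 lower and 0 of the 19 higher RNAs were called, and 8 of the higher RNAs had a fold change below 0, which are named as such where they are described. Single libraries also carried calls. Without LCD-fed mouse 5 there were 2 higher and 21 lower RNAs, without HCD-fed mouse 17 there were 4 and 24, without HCD-fed mouse 16 there were 8 and 24, without HCD-fed mouse 15 there were 11 higher, and without LCD-fed mouse 1 or 2 there were 10 higher. Mouse 17 had the lowest RPM of all 9 libraries for 30 of the 38 lower RNAs and the highest for 8 of the 19 higher ones. Of the 38 lower RNAs 18 passed under every scaling and without any 1 library. Here and below, every scaling includes that per miRNA read, which could not fail a lower RNA. The 18 count both miR-3084-1 and miR-3084-2, which have equal values in all libraries and so are 1 measurement.

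**Figure D3:**
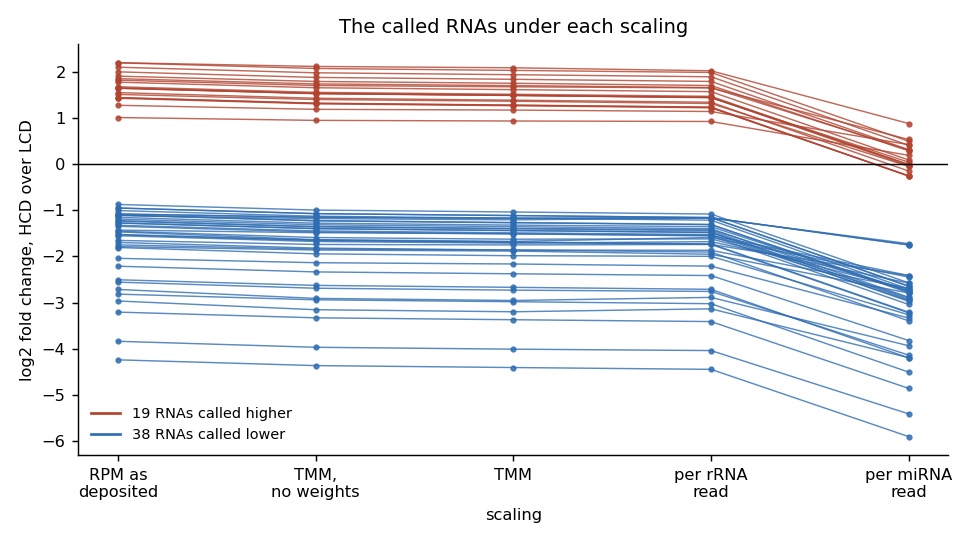
Log2 fold change of HCD over LCD (vertical axis) of the 19 RNAs called higher and the 38 called lower, each a line over 5 scalings (horizontal axis). All lines of the lower RNAs stay below 0, and 8 lines of the higher RNAs cross 0 per miRNA read, a scaling that shifts all RNAs downward.

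Fragments of both methionine tRNAs, of mitochondrial tRNA-Met and of all 3 valine tRNAs fell on the HCD. The elongator tRNA-Met-CAT, which brings methionine into growing chains, had the largest decrease of all. tsRNA-Met-CAT had 265, 97.0, 23.2 and 218 RPM in HCD-fed mice 15 to 18, against 2133, 2268, 1330, 3322 and 1701 RPM in LCD-fed mice 1 to 5. Every HCD library lay far below every LCD library, and the log2 fold change was −4.41 (standard error, SE, 0.50, limma adjusted p = 4.34e-05). The initiator tRNA starts every cytosolic protein, and its fragments (tsRNA-iMet-CAT) had 323 ± 123 RPM on the HCD (SD, n = 4) and 602 ± 183 RPM on the LCD (SD, n = 5), with overlap between the diets. Their log2 fold change was −1.11 (SE 0.36, limma adjusted p = 0.0384), which passed in only 1 of the 9 fits that left out a library, that without LCD-fed mouse 4 (highest limma adjusted p = 0.124, without HCD-fed mouse 17). RefSeq lists 16 tRNA-Met-CAT genes on GRCm38.p6, which its names do not divide into initiator and elongator genes.

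Among the valine families, tsRNA-Val-TAC had 113, 78.5, 18.9 and 65.7 RPM in HCD-fed mice 15 to 18, against 457, 833, 315, 493 and 801 RPM in LCD-fed mice 1 to 5. The diets did not overlap, and the log2 fold change was −3.37 (SE 0.45, limma adjusted p = 0.000116). The 3 genes of this tRNA lie on chromosome 19 at 12011931-12012003 and 12012266-12012338 and on chromosome X at 160766110-160766182 (GRCm38.p6). tsRNA-Val-AAC had 310 ± 81.8 RPM on the HCD (SD, n = 4) and 828 ± 365 RPM on the LCD (SD, n = 5), with a log2 fold change of −1.51 (limma adjusted p = 0.0137). tsRNA-Val-CAC had 495 ± 159 RPM on the HCD (SD, n = 4) and 1155 ± 299 RPM on the LCD (SD, n = 5), with a log2 fold change of −1.40 (limma adjusted p = 0.0111). The diets did not overlap in either family, and all 3 valine families passed under every scaling and without any 1 library. Of the 3 alanine and the 3 proline families 0 passed in either direction.

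Mitochondrial tRNAs are cut from the long transcripts of both strands of the mitochondrial genome and serve only the translation of mitochondrial proteins. Of the 22 families 45.5% were called lower, beside 15.6% over all RNAs tested. The 5 families that the results turn on are shown with the gene sequence from GENCODE M21 (GRCm38), 5′ to 3′ on the strand of the gene, with the anticodon in capitals.
mt-Met-CAT, mt-Tm, chrMT:3845-3913, plus strand: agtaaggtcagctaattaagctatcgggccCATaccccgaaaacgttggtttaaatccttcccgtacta
mt-Glu-TTC, mt-Te, chrMT:14071-14139, minus strand: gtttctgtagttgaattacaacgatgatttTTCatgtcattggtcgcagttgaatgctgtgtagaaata
mt-Ser-GCT, mt-Ts2, chrMT:11613-11671, plus strand: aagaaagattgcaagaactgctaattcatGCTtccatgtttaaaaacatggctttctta
mt-His-GTG, mt-Th, chrMT:11546-11612, plus strand: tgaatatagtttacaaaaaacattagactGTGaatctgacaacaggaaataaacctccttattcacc
mt-Gly-TCC, mt-Tg, chrMT:9391-9458, plus strand: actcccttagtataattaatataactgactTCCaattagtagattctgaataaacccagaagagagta
Fragments of mt-Met-CAT, the only mitochondrial methionine tRNA, had 48.7, 37.9, 5.35 and 27.6 RPM in HCD-fed mice 15 to 18, against 416, 407, 254, 296 and 399 RPM in LCD-fed mice 1 to 5. The log2 fold change was −4.01 (SE 0.47, limma adjusted p = 4.34e-05), the second largest decrease after tsRNA-Met-CAT among the 244 RNAs. Fragments of mt-Glu-TTC had 736, 454, 97.3 and 725 RPM in HCD-fed mice 15 to 18, against 2599, 6572, 1559, 1957 and 3135 RPM in LCD-fed mice 1 to 5. Their log2 fold change was −2.98 (SE 0.50, limma adjusted p = 0.00132). mt-Ser-GCT is the shortest of the 22 genes with 59 bases and lacks a D arm. Its fragments had 608, 373, 144 and 566 RPM in HCD-fed mice 15 to 18, against 3088, 2134, 2011, 1814 and 1698 RPM in LCD-fed mice 1 to 5. The diets did not overlap in any of these 3, and the last had a log2 fold change of −2.67 (SE 0.34, limma adjusted p = 0.000103).

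The other 7 lower mitochondrial families were mt-Trp-TCA, mt-Lys-TTT, mt-Asn-GTT, mt-Asp-GTC, mt-Arg-TCG, mt-Tyr-GTA and mt-Leu-TAA, with log2 fold changes of −3.20 to −1.27. The fold change of mt-Trp-TCA was −2.29 without HCD-fed mouse 17 and −2.57 without LCD-fed mouse 2. mt-Lys-TTT had 10.4, 17.8, 0 and 11.7 RPM in HCD-fed mice 15 to 18, against 102, 39.9, 48.5, 42.1 and 25.8 RPM in LCD-fed mice 1 to 5, and passed under every scaling and without any 1 library, as mt-Asn-GTT did. The log2 fold change of mt-Lys-TTT was −2.96, and −2.06 without HCD-fed mouse 17. mt-Asn-GTT was near the floor, with 1.68, 0.954, 0.357 and 3.74 RPM in HCD-fed mice 15 to 18, the lowest from 1 read. On the LCD it had 6.67 ± 3.53 RPM (SD, n = 5). mt-Asp-GTC and mt-Arg-TCG were low too, with 1.98 ± 1.86 and 4.39 ± 3.11 RPM on the HCD (SD, n = 4) and 6.82 ± 4.91 and 12.6 ± 6.10 RPM on the LCD (SD, n = 5). Leaving out a library ended the call in at least 1 fit for the 5 families other than mt-Lys-TTT and mt-Asn-GTT. In mt-Trp-TCA, mt-Asn-GTT, mt-Asp-GTC, mt-Tyr-GTA and mt-Leu-TAA the diets overlapped. The lower families came from both strands of the genome, 7 of the 14 tRNAs of the heavy-strand transcript and 3 of the 8 of the light-strand transcript, with median log2 fold changes of −1.53 and −0.91. Over all RNAs tested 15.6% were called lower, with a median of −0.12. mt-His-GTG and mt-Gly-TCC, the most abundant families on the HCD, were not called, with log2 fold changes of −0.32 (limma adjusted p = 0.559) and 0.23 (limma adjusted p = 0.659), and −1.85 and −1.30 per miRNA read. Within the class their share was higher on the HCD. mt-Gly-TCC took 26.8% ± 5.82 of the mitochondrial tsRNA reads on the HCD (SD, n = 4) and 8.51% ± 0.691 on the LCD (SD, n = 5), and mt-His-GTG 32.8% ± 9.31 and 15.4% ± 3.42, without overlap in either. The share of mt-Met-CAT was 0.803% ± 0.547 on the HCD (SD, n = 4) and 4.11% ± 0.945 on the LCD (SD, n = 5). Such shares within a class do not depend on the scaling, and each of these 3 gave p = 0.00794 in a two-sided exact permutation test (adjusted p = 0.0423 over the 48 shares within classes that were compared after the data had been seen), which did not pass with 1 library left out. The same holds for the share of mt-Gln-TTG, 2.02% ± 0.176 on the HCD (SD, n = 4) and 0.994% ± 0.428 on the LCD (SD, n = 5). The level of mt-Gln-TTG was not called (log2 fold change −0.23, limma adjusted p = 0.659).

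The mitochondrial ribosomal RNAs are made on the heavy strand as well. 12S-rRNA fragments, from the small subunit of the mitochondrial ribosome, had 53.2, 90.0, 8.91 and 26.0 RPM in HCD-fed mice 15 to 18, against 534, 156, 96.1, 84.1 and 136 RPM in LCD-fed mice 1 to 5. HCD-fed mouse 16 overlapped LCD-fed mouse 4, and LCD-fed mouse 1 stood above all others. The log2 fold change was −2.38 (SE 0.59, limma adjusted p = 0.0148). 16S-rRNA fragments, from the large subunit, had 1549 ± 402 RPM on the HCD (SD, n = 4) and 2539 ± 1435 RPM on the LCD (SD, n = 5) and were not called (log2 fold change −0.77, limma adjusted p = 0.154).

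Further cytosolic families that fell serve glutamate, glycine, aspartate and other amino acids. Fragments of tRNA-Glu-CTC were the most abundant tsRNA of both diets. The following 3 sequences of this family were taken from the study's list of its fragments. They were picked at different lengths among those that end in the same 8 bases (in capitals). This stretch ends in the anticodon loop but does not lie wholly within it. Their shared 3′ end and differing 5′ starts thus follow from the choice. None of them starts at the 5′ end of the tRNA, to which the paper traces most of the highly expressed fragments.
15 nt, tRNA-Glu-CTC: aggattcGGCGCTCT
22 nt, tRNA-Glu-CTC: agtggttaggattcGGCGCTCT
28 nt, tRNA-Glu-CTC: tggtctagtggttaggattcGGCGCTCT
The sum over all fragments was 76003, 40242, 50234 and 44280 RPM in HCD-fed mice 15 to 18, against 114428, 64242, 153162, 203610 and 125094 RPM in LCD-fed mice 1 to 5, where mouse 2 overlapped the HCD. The log2 fold change of tsRNA-Glu-CTC was −1.44 (SE 0.40, limma adjusted p = 0.0228), and it stayed under 0.05 without any 1 library (highest adjusted p = 0.0408). RefSeq places its 12 genes on 8 chromosomes of GRCm38.p6. tsRNA-Gly-GCC had 5360 ± 2353 RPM on the HCD (SD, n = 4) and 10281 ± 1908 RPM on the LCD (SD, n = 5), with a log2 fold change of −1.17 (limma adjusted p = 0.0246, 0.0572 without HCD-fed mouse 16). The selenocysteine tRNA reads a stop codon for the few selenoproteins, and its fragments (tsRNA-SeC-TCA) had 143, 86.9, 109 and 379 RPM in HCD-fed mice 15 to 18, against 408, 430, 420, 408 and 511 RPM in LCD-fed mice 1 to 5. All HCD libraries lay below the LCD libraries, mouse 18 only just (log2 fold change −1.69, SE 0.37, limma adjusted p = 0.00876). tsRNA-Ile-TAT, whose tRNA has 1 gene in RefSeq, had 13.2 ± 7.42 RPM on the HCD (SD, n = 4) and 41.7 ± 15.7 RPM on the LCD (SD, n = 5), without overlap (log2 fold change −1.98, limma adjusted p = 0.0151). tsRNA-Asp-GTC varied widely among HCD-fed mice, with 5178, 789, 1540 and 10839 RPM in mice 15 to 18, against 6862, 6545, 5844, 16851 and 15904 RPM in LCD-fed mice 1 to 5. Its log2 fold change of −1.86 (limma adjusted p = 0.0327) did not pass without HCD-fed mouse 16 or 17 or LCD-fed mouse 4 or 5 (highest limma adjusted p = 0.101), and was −1.26 without mouse 16. The remaining lower families, Arg-CCG, Ile-AAT, Lys-CTT, Ser-CGA, Cys-GCA, Trp-CCA and Glu-TTC, had log2 fold changes of −1.70 to −1.04, and all lost the call without at least 1 library.

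Fragments of 3 cytosolic families rose on the HCD. tRNA-His-GTG carries an extra guanosine at its 5′ end and queuosine in its anticodon. tsRNA-His-GTG had 27845, 30245, 27140 and 18593 RPM in HCD-fed mice 15 to 18, against 14579, 8089, 14713, 6914 and 5986 RPM in LCD-fed mice 1 to 5, and the diets did not overlap. The log2 fold change was 1.28 (SE 0.39, limma adjusted p = 0.0338), but −0.25 per miRNA read (limma adjusted p = 0.705), and it did not pass without HCD-fed mouse 15, 16 or 17 or LCD-fed mouse 4 or 5 (highest limma adjusted p = 0.105). Within the cytosolic tsRNA reads its share was 22.1% ± 7.22 on the HCD (SD, n = 4) and 5.37% ± 2.53 on the LCD (SD, n = 5). There were 0.366, 0.752, 0.540 and 0.420 tsRNA-His-GTG reads per tsRNA-Glu-CTC read in HCD-fed mice 15 to 18, against 0.127, 0.126, 0.0961, 0.0340 and 0.0479 in LCD-fed mice 1 to 5, so that it was the second most abundant family on the HCD. The shares of tsRNA-Gln-CTG (2.18% ± 0.738 on the HCD, n = 4, and 0.841% ± 0.297 on the LCD, n = 5) and tsRNA-Arg-ACG (1.79% ± 0.774 and 0.615% ± 0.124) were also higher without overlap. All 3 shares gave p = 0.00794 in the exact permutation test (adjusted p = 0.0423 over the 48 shares), while the levels of the last 2 families were not called. Of the 4 families whose tRNAs carry queuosine, His-GTG rose and Asp-GTC fell, and the other 2 were not called. tsRNA-Phe-GAA had 344 ± 198 RPM on the HCD (SD, n = 4) and 105 ± 48.4 RPM on the LCD (SD, n = 5), with a log2 fold change of 1.52 (limma adjusted p = 0.0376) and of −0.01 per miRNA read, and the diets overlapped. tsRNA-Ser-GGA was a rare family with 38.6 ± 19.3 RPM on the HCD (SD, n = 4) and 11.8 ± 5.91 RPM on the LCD (SD, n = 5) and a log2 fold change of 1.49 (limma adjusted p = 0.0416). The call of tsRNA-Phe-GAA was lost in 5 and that of tsRNA-Ser-GGA in 8 of the 9 fits that left out a library.

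**Figure D4:**
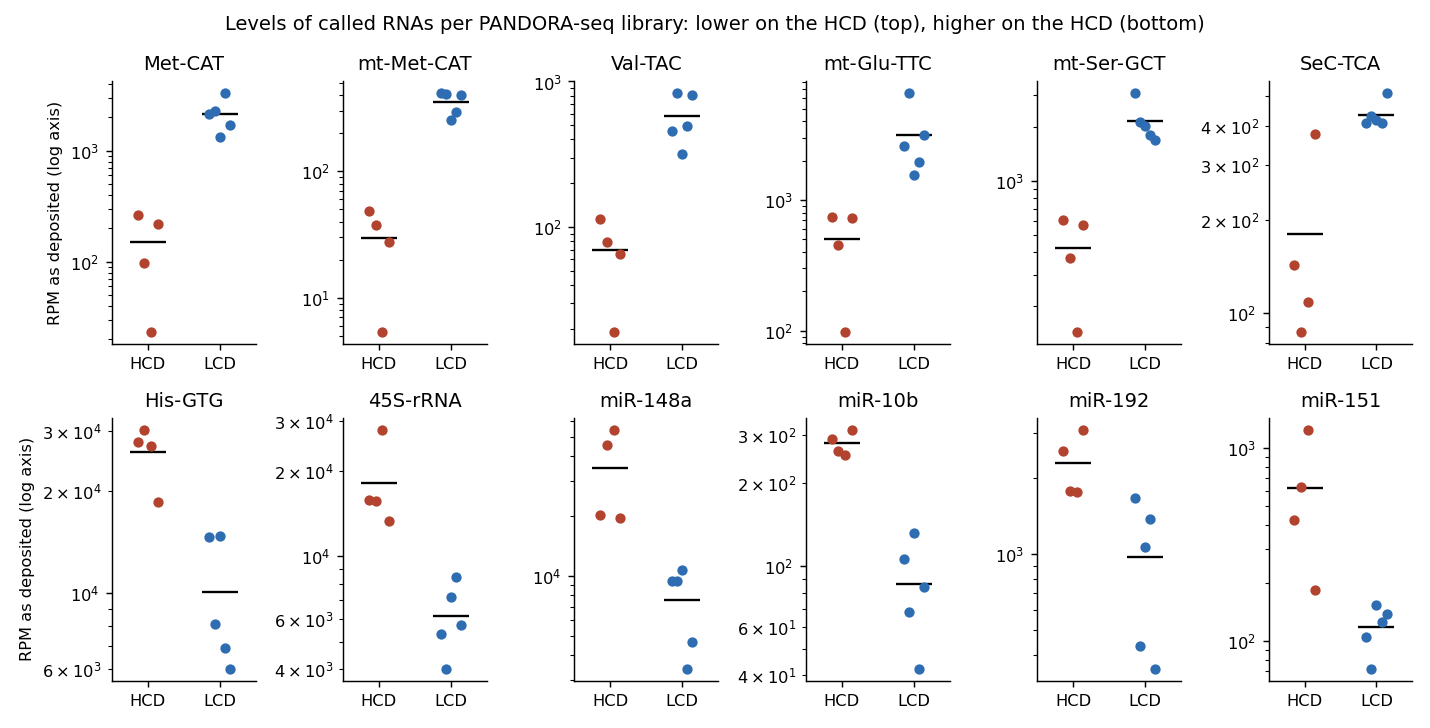
RPM as deposited (log axes) of 12 called RNAs in the 4 HCD and the 5 LCD libraries, with a point per mouse in order of its number and the mean as a line. The 6 RNAs of the top row were lower and the 6 of the bottom row higher on the HCD by limma, with no overlap between the diets in any panel, while per miRNA read His-GTG, 45S-rRNA and miR-192 turned to below 0.

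Among ribosomal RNAs, the entries moved apart from each other. 45S-rRNA is the precursor that RNA polymerase I makes and from which 18S, 5.8S and 28S rRNA are cut. Its entry had 15860, 15709, 28003 and 13299 RPM in HCD-fed mice 15 to 18, against 5334, 4001, 7165, 8484 and 5712 RPM in LCD-fed mice 1 to 5. The diets did not overlap, and the log2 fold change was 1.39 (SE 0.42, limma adjusted p = 0.0326), which was −0.15 per miRNA read and did not pass without HCD-fed mouse 17 or LCD-fed mouse 5 (highest limma adjusted p = 0.105). As a share of the rsRNA reads it was 3.10% ± 1.14 on the HCD (SD, n = 4) and 1.24% ± 0.484 on the LCD (SD, n = 5; exact permutation test, p = 0.00794, adjusted p = 0.0423 over the 48 shares). The share of 4.5S-rRNA went the other way, with 0.0153% ± 0.00456 on the HCD and 0.0316% ± 0.00679 on the LCD. It did not overlap and gave the same p and adjusted p in that test. The level of 4.5S-rRNA was not called (log2 fold change −1.02, limma adjusted p = 0.0614). 5S-rRNA, made by RNA polymerase III, had 90873, 68433, 94779 and 107759 RPM in HCD-fed mice 15 to 18, against 31684, 22061, 46885, 59745 and 44953 RPM in LCD-fed mice 1 to 5. Although the diets did not overlap in RPM, its log2 fold change of 1.04 was not called (SE 0.38, limma adjusted p = 0.0593). 28S-rRNA, the most abundant entry of the table, had 385700 ± 21165 RPM on the HCD (SD, n = 4) and 357239 ± 45613 RPM on the LCD (SD, n = 5), and 18S-rRNA had 71406 ± 19128 RPM and 90568 ± 35592 RPM. Neither was called (limma adjusted p = 0.912 and 0.385). Of the Y RNAs, which bind the Ro protein, RNY3 fell with a log2 fold change of −1.44 (limma adjusted p = 0.0399), a call lost in 6 of the 9 fits that left out a library (highest limma adjusted p = 0.134), and RNY1 had −0.77 (limma adjusted p = 0.215).

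Among miRNAs the 15 higher entries included several that mark hepatocytes or share a seed. Their mature strands are given from RefSeq (GRCm38.p6) with the seed in capitals, together with relatives of the same seed. The deposited values sum both arms of a precursor, so the arm shown is the usually abundant one and was not measured apart.
miR-148a-3p, chr6:51269829-51269850, minus strand: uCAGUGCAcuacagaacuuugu
miR-148b-3p, chr15:103285185-103285206, plus strand: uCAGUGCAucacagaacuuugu
miR-152-3p, chr11:96850439-96850459, plus strand: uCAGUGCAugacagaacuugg
miR-10a-5p, chr11:96317186-96317208, plus strand: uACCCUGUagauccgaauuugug
miR-10b-5p, chr2:74726074-74726096, plus strand: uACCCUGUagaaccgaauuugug
miR-192-5p, chr19:6264857-6264877, plus strand: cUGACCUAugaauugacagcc
let-7b-5p, chr15:85707325-85707346, plus strand: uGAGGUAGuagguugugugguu
miR-148a, an abundant hepatocyte miRNA known to target the LDL receptor, had 20284, 45575, 54514 and 19563 RPM in HCD-fed mice 15 to 18, against 9491, 9424, 10674, 3405 and 4662 RPM in LCD-fed mice 1 to 5. The diets did not overlap, the log2 fold change was 2.04 (SE 0.51, limma adjusted p = 0.0151), and it passed without any 1 library but not per miRNA read (0.50, limma adjusted p = 0.437). miR-148b, which lies in an intron of Copz1, rose by 1.495 on the log2 scale (limma adjusted p = 0.0363, −0.01 per miRNA read), with 77.6 ± 27.3 RPM on the HCD (SD, n = 4) and 24.2 ± 9.21 RPM on the LCD (SD, n = 5). miR-152, which has the same seed, had 18.2, 16.4, 5.35 and 14.7 RPM in HCD-fed mice 15 to 18, against 21.1, 17.1, 7.98, 12.7 and 12.3 RPM in LCD-fed mice 1 to 5, and was not called (limma adjusted p = 0.658). Members of the seed family thus differed in their call, and the difference between them was not tested.

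miR-10a and miR-10b lie in Hox gene clusters, miR-10b in introns of Hoxd3 and Hoxd4. Their mature strands shown above differ by 1 base, and 1 mismatch was allowed in the assignment, so they may share reads. miR-10b had 290, 262, 255 and 314 RPM in HCD-fed mice 15 to 18, against 106, 68.1, 132, 42.2 and 83.8 RPM in LCD-fed mice 1 to 5, with little spread among the HCD libraries. Its log2 fold change was 1.62 (SE 0.38, limma adjusted p = 0.0121), and it passed without any 1 library but not per miRNA read (0.09, limma adjusted p = 0.913). miR-10a had 321 ± 38.7 RPM on the HCD (SD, n = 4) and 109 ± 48.6 RPM on the LCD (SD, n = 5), with a log2 fold change of 1.49 (limma adjusted p = 0.0151) and of −0.03 per miRNA read. miR-192, a miRNA of hepatocytes and gut epithelium, had 2560, 1780, 1759 and 3099 RPM in HCD-fed mice 15 to 18, against 1662, 435, 1063, 1373 and 352 RPM in LCD-fed mice 1 to 5 (log2 fold change 1.28, limma adjusted p = 0.0486, −0.26 per miRNA read). miR-151, from an intron of the focal adhesion kinase gene Ptk2, had 623 ± 455 RPM on the HCD (SD, n = 4) and 119 ± 31.7 RPM on the LCD (SD, n = 5), with a log2 fold change of 1.94 (limma adjusted p = 0.0326), which was 1.34 without HCD-fed mouse 17. The let-7 family restrains growth genes, and of its 14 entries tested only let-7b was called, with 389, 265, 877 and 298 RPM in HCD-fed mice 15 to 18, against 125, 24.99, 232, 164 and 83.8 RPM in LCD-fed mice 1 to 5 (log2 fold change 1.84, limma adjusted p = 0.0455). The 14 had a median log2 fold change of 0.89, beside −0.12 over all RNAs tested. A single call among 14 is near the 7.79% called higher over all RNAs tested. miR-378a, from an intron of Ppargc1b, and miR-378b rose by 1.27 and 1.37 on the log2 scale (limma adjusted p = 0.0492 and 0.0384) and turned to −0.25 and −0.05 per miRNA read. Their near-identical sequences may share reads. Leaving out a library ended the call in 1 of 9 fits for miR-10a and in 3 to 7 for miR-148b, miR-192, miR-151, let-7b, miR-378a and miR-378b. The other higher entries were miR-150, miR-184, miR-365-2, miR-671, miR-714 and miR-1964, of which miR-150, miR-184 and miR-714 averaged under 10 RPM. miR-365-2 had 61.5 RPM in HCD-fed mouse 17 and 4.90 to 8.19 RPM in the other HCD-fed mice, against 0.632 to 3.67 RPM in LCD-fed mice (log2 fold change 2.09, limma adjusted p = 0.0384). The call of miR-365-2 was lost in 5 of the 9 fits that left out a library, among them that without HCD-fed mouse 17 (log2 fold change 1.19, limma adjusted p = 0.0773), and those of miR-184, miR-671, miR-714 and miR-1964 in 2 to 6. miR-150 met the filter in only 5 of the 9 fits and lost the call in 3 of them.

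miR-122, the most abundant liver miRNA, which sustains cholesterol synthesis, had 30284, 29874, 69554 and 30632 RPM in HCD-fed mice 15 to 18, against 21639, 2581, 26470, 12032 and 6063 RPM in LCD-fed mice 1 to 5. The diets did not overlap, but its log2 fold change of 1.71 was not called (SE 0.61, limma adjusted p = 0.0554). miR-33, which lies in an intron of the sterol regulator gene Srebf2, was too rare to test, with 0, 0, 0 and 0.234 RPM in HCD-fed mice 15 to 18, against 0, 0, 0.196, 0 and 0 RPM in LCD-fed mice 1 to 5. These values stand for 1 and 2 reads, so no difference could be seen at this depth. A list of cholesterol and lipid regulating miRNAs had 34 members in the table, of which miR-144 and miR-758 were at 0 in all 9 libraries. Of the 21 tested, 3 were higher (miR-148a, miR-10b and miR-378a, of which the last turned per miRNA read) and 0 lower, beside 7.79% higher and 15.6% lower over all RNAs tested. The median log2 fold change of the list was −0.14, beside −0.12 over all RNAs tested. The fold changes of the miRNAs are also given by level, as a description only, since the level is the mean over the same 9 libraries and the added 1 RPM shrinks the folds of rare RNAs. The median log2 fold change was −0.25 over the 85 miRNAs under 10 RPM, 0.56 over the 51 from 10 to 100 RPM, 1.0 over the 21 from 100 to 1000 RPM, and 1.71 over the 3 above.

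The 9 lower miRNA entries were rarer, except miR-690. miR-690, from an intron of Fgf12, had 131, 90.3, 5.35 and 56.2 RPM in HCD-fed mice 15 to 18, against 308, 809, 214, 69.6 and 373 RPM in LCD-fed mice 1 to 5, and mouse 4 overlapped the HCD. Its log2 fold change was −2.73 (SE 0.75, limma adjusted p = 0.0224, 0.0593 without HCD-fed mouse 17, where the fold change was −1.93, and 0.0556 without LCD-fed mouse 5). miR-23a and miR-23b, from the miR-23, miR-27 and miR-24 clusters on chromosomes 8 and 13, differ little in sequence and may share reads. miR-23b had 4.48, 5.92, 1.43 and 1.52 RPM in HCD-fed mice 15 to 18, against 33.8, 20.8, 9.25, 8.55 and 13.4 RPM in LCD-fed mice 1 to 5, without overlap (log2 fold change −2.16, SE 0.47, limma adjusted p = 0.00876). miR-23a had 1.19 ± 1.32 RPM on the HCD (SD, n = 4) and 6.53 ± 4.09 RPM on the LCD (SD, n = 5; log2 fold change −1.86, limma adjusted p = 0.0168, 0.0593 without HCD-fed mouse 17). The other 4 members of these clusters were not called, among them miR-27b with 45.8 ± 18.9 RPM on the HCD (SD, n = 4) and 38.5 ± 13.9 RPM on the LCD (SD, n = 5). Of the remaining 6 entries, miR-3068, miR-3084-1, miR-3084-2 and miR-6516 overlap snoRNA or scaRNA genes of GENCODE M21 and miR-682 a processed pseudogene, while miR-3108 lies in an intron of Zfhx3. miR-3084-1 and miR-3084-2 have equal values in all libraries and so are 1 measurement. They had 0.317 ± 0.289 RPM on the HCD (SD, n = 4) and 1.79 ± 0.643 RPM on the LCD (SD, n = 5), which is a few reads per library. Both, and miR-6516 with 0 to 0.936 RPM on the HCD, met the filter through the LCD libraries alone. For miR-714 no locus was found, and no other higher entry overlapped a snoRNA, scaRNA or pseudogene. The share of such overlaps over all miRNAs tested was not counted, so the 2 directions cannot be set against each other in this.

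Markers of other liver cell types were low. The 13 hepatocyte miRNAs in the table made up 90.0% ± 3.04 of the miRNA reads on the HCD (SD, n = 4) and 81.3% ± 5.62 on the LCD (SD, n = 5), and 3 of the 12 tested were higher (miR-148a, miR-192 and miR-378a, of which the last 2 turned per miRNA read) and 0 lower, beside 7.79% and 15.6% over all RNAs tested. Their sum ranged from 54564 to 126387 RPM on the HCD and from 11696 to 38764 RPM on the LCD. The 9 endothelial miRNAs summed to 413 to 623 RPM on the HCD and 167 to 387 RPM on the LCD, also without overlap, with 1 of 8 tested called (miR-10a, which is not particular to endothelium), and miR-126b was at 0 throughout. miR-10a alone had 321 ± 38.7 RPM on the HCD (SD, n = 4) and 109 ± 48.6 RPM on the LCD (SD, n = 5), and may share reads with miR-10b. The marker miR-126a had 26.1 ± 12.6 RPM and 23.0 ± 9.08 RPM, with overlap (log2 fold change −0.04, limma adjusted p = 0.924). Of the miRNA reads the list took 0.718% ± 0.337 on the HCD and 1.06% ± 0.406 on the LCD. The 12 stellate cell and fibroblast miRNAs summed to 337 to 675 RPM on the HCD and 188 to 371 RPM on the LCD, the 9 biliary ones to 12.04 to 38.9 RPM and 16.1 to 39.3 RPM, the 9 immune ones to 9.63 to 26.9 RPM and 8.12 to 22.6 RPM, and the 4 erythroid ones to 11.02 to 32.1 RPM and 1.62 to 14.9 RPM. Of these last 4 lists only miR-150, of lymphocytes, was called, and 17 of their 34 members were tested. miR-150 had 1.64 to 2.52 RPM on the HCD and 0 to 0.902 RPM on the LCD. It thus met the filter through the HCD libraries alone, and its call is no sign of a change in immune cells. Of the members of these 4 lists miR-195b and miR-144 were at 0 in all 9 libraries. The part of the cell makeup in the diet differences was not tested.

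The traditional-seq libraries of the same mice were fitted in the same way. Over all 349 RNAs tested there, 12 were called higher and 22 lower, and the median log2 fold change was 0.06. Of the 19 RNAs higher in PANDORA-seq 18 were tested there, 15 had a fold change above 0, 2 were called higher and 1 lower. Of the 38 lower RNAs 35 were tested, 26 had a fold change below 0, 8 were called lower and 1 higher. The 8 were tsRNA-Glu-CTC, tsRNA-Glu-TTC, tsRNA-Gly-GCC, tsRNA-Lys-CTT, mt-Ser-GCT, miR-23a, miR-23b and miR-3108. mt-Ser-GCT had a log2 fold change of −3.04 in traditional-seq (limma adjusted p = 0.00751), beside −2.67 in PANDORA-seq. Whether the effect of diet depended on the method was tested by limma over all 18 libraries, and 14 of 365 RNAs were called (3.84%). This fit had no term for the mouse and took both libraries of a mouse as independent. With the mouse as a replicate block 24 were called, and with RPM as deposited 53. tsRNA-Val-TAC, for example, had 69.1 ± 39.0 RPM in PANDORA-seq on the HCD (SD, n = 4) and 580 ± 227 RPM on the LCD (SD, n = 5), but 57.2 ± 28.1 RPM and 66.4 ± 3.38 RPM in traditional-seq. Its diet effect was 3.68 lower on the log2 scale in PANDORA-seq than in traditional-seq (limma adjusted p = 0.0012, and 0.00236 with the mouse as a block). tsRNA-Met-CAT and mt-Met-CAT had log2 fold changes of −1.06 and −0.94 in traditional-seq, where neither was called. The difference between the methods was called for both (limma adjusted p = 0.00297 for each, and 0.00168 for each with the mouse as a block). tsRNA-His-GTG went opposite ways, with a log2 fold change of 1.28 in PANDORA-seq and −1.30 in traditional-seq (limma adjusted p = 0.0234), where it had 499 ± 217 RPM on the HCD (SD, n = 4) and 1831 ± 604 RPM on the LCD (SD, n = 5). tsRNA-Trp-CCA was likewise lower in PANDORA-seq (−1.11) and higher in traditional-seq (1.70, limma adjusted p = 0.0207).

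**Figure D5:**
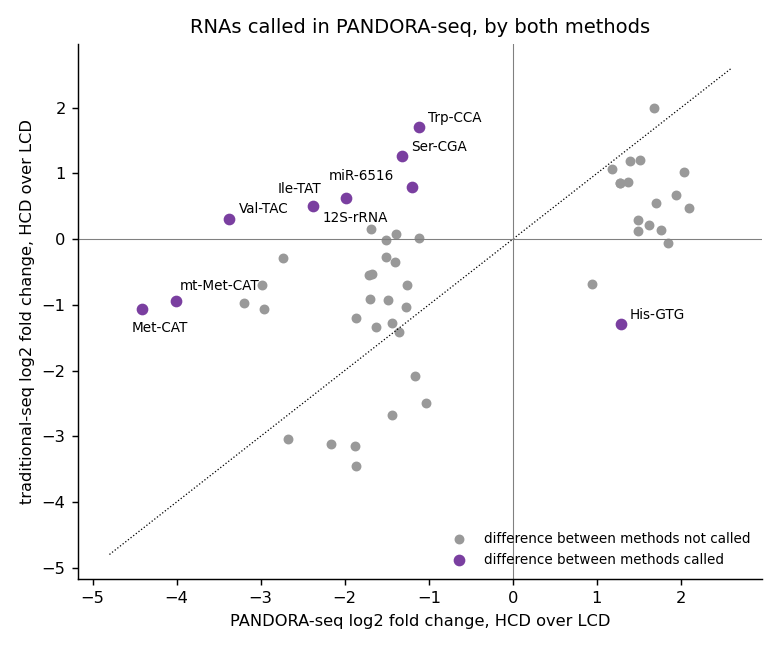
Log2 fold change of HCD over LCD in PANDORA-seq (horizontal axis) and in traditional-seq (vertical axis) for the RNAs called in PANDORA-seq and tested in both, with equal effects on the dotted line. The named RNAs are those whose diet effect differed between the methods by limma, and His-GTG lies right of 0 in PANDORA-seq and below 0 in traditional-seq.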

How the data were processed

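Liver small RNA of 15 to 50 nt was sequenced after T4PNK and AlkB treatment (PANDORA-seq) or without it. The authors assigned reads to RNAs with SPORTS1.1 (version 1.1.0) on mm10, allowing 1 mismatch, and deposited RPM, reads scaled to a common library total. Empty cells were read as 0. Samples were grouped by their labels, and 0 columns belonged to no sample. Only 61.3% to 71.2% of the values in a PANDORA-seq library were whole multiples of 1 read (within 0.02 read), and reads were divided among entries, so counts were not recovered and limma replaced the count test. Read totals were inferred from the RPM value of 1 read, 0.0954 to 0.398 RPM, and RNAs near 1 RPM rest on few reads. PCR reads are not independent molecules. The lowest correlation of log2(RPM + 1) between libraries of a group was 0.969, and 0 pairs were identical.

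RPM was scaled by TMM (own code, trimming 30% by fold change and 5% by level) and log2(RPM + 1) was fitted by limma 3.58.1 (trended variance, R 4.3.3) at a Benjamini-Hochberg adjusted p of 0.05. RNAs entered if 4 or more of the 9 libraries reached 1 RPM. Fold changes on this scale understate the change of rare RNAs. Class shares and, chosen after seeing the data, shares within a class were compared by exact permutation tests. Python 3.11.15 (numpy 2.4.6, pandas 2.3.3, matplotlib 3.10.9) served for the rest. The limma step was run on simulated data, which drew each RNA independently with equal numbers of rises and falls. That run could not try shifts of a whole class and so does not bear on the choice of scaling. The labels name separate mice, and p-values of the diet comparison measure the spread between them. Those of the difference between the methods come from a fit that took both libraries of a mouse as independent, except where the mouse was a block.

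Named were all classes and all ribosomal, Y and piRNA entries, the 15 most abundant cytosolic tsRNA families and miRNAs, the 15 called RNAs of each direction with the smallest adjusted p, the 10 miRNAs, 10 cytosolic and 5 mitochondrial tsRNA families with the largest fold changes, RNAs named by the study, and list members by counts. Not all of these are described one by one, and other called RNAs were added after their values were seen. Members, lists and this rule were chosen with earlier results of these data known. Both libraries of a mouse come from the same RNA by the paper's methods, and their deviations from the group means correlated with r of 0.0858 to 0.397, over 0.1 in 8 of 9 mice. Alternatives were other scalings, pseudocounts of 0.5 and 5, no filter or a filter at 10 RPM, the read total as a covariate, all 18 libraries in 1 fit, the mouse as a block, and leaving out each library.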

Additional observations from a re-analysis of the deposited data

Results flagged for a closer look

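Among the PANDORA-seq values of 6 class shares and 57 called RNAs in each diet, 12 groups held a library set far apart from the others by Dixon's limit, where chance would give about 5%. HCD-fed mouse 17 stood apart in 5 of them. It was low in tsRNA-Ile-TAT with 2.14 RPM (16.2 to 17.9 RPM in the other HCD-fed mice), in tsRNA-iMet-CAT with 138 RPM (380 to 389 RPM) and in tsRNA-Trp-CCA with 609 RPM (1426 to 1579 RPM). It was high in miR-365-2 with 61.5 RPM (4.90 to 8.19 RPM) and in miR-671 with 111 RPM (33.5 to 37.7 RPM). HCD-fed mouse 18 was high in mt-Tyr-GTA with 122 RPM (17.9 to 33.5 RPM) and in miR-6516 with 0.936 RPM (0 to 0.0954 RPM), and HCD-fed mouse 15 in miR-3068 with 1.120 RPM (0.668 to 0.713 RPM). Among LCD-fed mice, mouse 1 was high in 12S-rRNA with 534 RPM (84.1 to 156 RPM in the others), mouse 3 in miR-3108 with 29.1 RPM (0.722 to 8.36 RPM), and mouse 5 in tsRNA-SeC-TCA with 511 RPM (408 to 430 RPM) and in tsRNA-Ser-CGA with 103 RPM (55.1 to 59.6 RPM).

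The diet effect differed between the methods by the limma interaction for 14 RNAs. The PANDORA-seq effect minus the traditional-seq effect, on the log2 scale, was −3.68 for tsRNA-Val-TAC, −3.64 for 18S-rRNA, −3.35 for tsRNA-Met-CAT, −3.07 for mt-Met-CAT, −2.89 for 12S-rRNA, −2.81 for tsRNA-Trp-CCA, −2.61 for tsRNA-Ile-TAT and −2.58 for tsRNA-Ser-CGA. It was −2.0 for miR-6516, −1.88 for miR-6236, −1.75 for miR-682 and −1.27 for each of miR-3084-1 and miR-3084-2, and 2.58 for tsRNA-His-GTG, where alone it was above 0. 18S-rRNA was called by diet in traditional-seq (log2 fold change 3.19, limma adjusted p = 0.000364) and not in PANDORA-seq (−0.45).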

How the results depend on the processing

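The number of RNAs called higher by limma, 19, was 29 with RPM as deposited, 0 per miRNA read, 0 without a filter, 10 with the read total as a covariate and 40 with all 18 libraries. The number of lower RNAs, 38, was 113 per miRNA read, 13 without a filter (956 RNAs tested) and 23 with all 18 libraries. At an unadjusted limma p under 0.05, 0 were higher and 132 lower per miRNA read, and 54 were higher and 56 lower without a filter. Without 1 library there were 2 to 25 higher and 21 to 36 lower RNAs. Per miRNA read 8 called RNAs turned, to −0.15 (45S-rRNA), −0.25 (tsRNA-His-GTG), −0.00835 (tsRNA-Phe-GAA), −0.0327 (miR-10a), −0.00664 (miR-148b), −0.26 (miR-192), −0.25 (miR-378a) and −0.0453 (miR-378b). These values follow from the scale itself, which sets the miRNA sum equal. No other called RNA turned under the alternatives run. Without 1 library the difference of the class shares in percentage points, HCD minus LCD, was 4.86 to 7.60 for miRNAs, −13.3 to −8.32 for cytosolic tsRNAs, −0.802 to −0.517 for mitochondrial tsRNAs, 2.85 to 7.72 for rsRNAs, −0.0110 to −0.00704 for ysRNAs and −0.491 to −0.0811 for piRNAs. Cytosolic tsRNAs and rsRNAs passed only without LCD-fed mouse 2 (exact test, adjusted p = 0.0429 each). As a percent of all reads the mitochondrial difference was −0.538 and did not pass. The 14 RNAs whose diet effect differed between the methods were 24 with the mouse as a replicate block, 53 with RPM as deposited and 12 to 20 without 1 mouse. No paired analysis was possible for the diets themselves because each mouse had 1 diet. Each of the 9 shares within a class that passed lost the call in every fit that left out a library, where the smallest p that the exact test allows is larger. The cause of the other shifts was not tested. RNAs near 1 RPM rest on few reads per library.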
